A study of Medicago sativa with 12 samples.

Results

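The lipoxygenase and jasmonate genes of alfalfa (Medicago sativa) leaves were described as the gene models whose KEGG annotation named linoleic acid metabolism or alpha-linolenic acid metabolism and whose mean over the 12 libraries was at least 1 FPKM (fragments per kilobase of transcript scaled to library size). Gene models that also carried the fatty acid elongation map or the cutin, suberine and wax map were left out. Of 164632 gene models, 501 carried either map, and 158 of these passed the minimum. The linoleic acid map held 58 of the members, the alpha-linolenic acid map held 123, and 23 were in both. Of the 343 gene models under the minimum, 146 had no count in any library. The members were thus chosen by annotation and by mean FPKM, and their mean level is a description. A group mean was under 1 FPKM in at least 1 group for 57 members, and for the other 101 members all 4 group means were at least 1. Just inside the minimum were MS.gene98283, a 4-coumarate-CoA ligase-like 9 model, at 1.01 FPKM and MS.gene21808, a 12-oxophytodienoate reductase 2 model, at 1.03 FPKM. Just outside it were MS.gene40483, a putative 12-oxophytodienoate reductase 11 model, at 0.994 FPKM and MS.gene053906, an allene oxide cyclase model, at 0.973 FPKM.

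The plants were of 1 cultivar, Zhongmu 1, and all were watered with Hoagland solution. The control group (CK) received that solution alone, the S group received it with 150 mM NaCl, the M group with 50 µM melatonin, and the SM group with both. Leaf RNA was sequenced from 3 biological replicates in each group, named here CK1 to CK3, M1 to M3, S1 to S3 and SM1 to SM3. The comparisons of S, SM and M with CK share the CK libraries, and the comparison of SM with S shares the S libraries.

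Oxylipins are made from polyunsaturated fatty acids that lipases release from membranes and oil bodies. In the jasmonate branch, 13-lipoxygenases add oxygen to linolenic acid, allene oxide synthase and allene oxide cyclase turn the product into the cyclic precursor OPDA, an OPDA reductase reduces it, and a CoA ligase followed by rounds of beta-oxidation in the peroxisome shortens it to jasmonic acid. Hydroperoxide lyase uses the same 13-hydroperoxides to make the leaf aldehydes known as green leaf volatiles. 9-lipoxygenases open a separate branch of oxylipins that does not lead to jasmonate. Jasmonate is known in leaves for defence against feeding insects and as a hormone of stress and ageing.

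Library totals ranged from 45862158 to 57192229 estimated counts, and the leaf markers were high in every library: chlorophyll a-b binding protein summed to 4096 to 21023 FPKM in the 6 libraries without salt and to 24161 to 36534 FPKM in the 6 with it, and the rubisco small chain to 2488 to 11584 FPKM over all 12, while the 43 leghemoglobin models summed to at most 0.522 FPKM. The libraries stood apart in single gene groups, and 3 of them touch the results below. S1 alone held 9-lipoxygenase RNA at 5144 FPKM, together with a high level of phloem markers. M2 stood alone above all other libraries in allene oxide cyclase and 13S-lipoxygenase 3-1. CK1 stood alone in a putative phospholipase A(2). Results that rest on one of these are given with and without it. The RNA came from whole leaves, so fewer cells of a type and less RNA per cell cannot be told apart.

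Whether salt, melatonin or both moved the pathway was first read from the number of members past the study's own criteria, a fold change over 2 or under 0.5 with an unadjusted p under 0.05, and from the number with a Benjamini-Hochberg adjusted p under 0.05 in edgeR's quasi-likelihood test over all 50931 gene models tested. Between S and CK, 23 of the 158 members were past the criteria and higher in S (14.6%, against 7.79% of all gene models tested), and 10 were past them and lower (6.33%, against 6.41%). The median log2 fold change of the members was 0.09, against 0.05 over all gene models, and -0.05 without S1. The share of members that were lower was thus near that of all genes. The count of members that were higher is a description, since 11 of the 23 had a mean under 1 FPKM in CK and passed the FPKM minimum through other groups. Without S1 the counts were 16 higher (background 6.85%) and 13 lower (background 7.18%). An adjusted p under 0.05 was reached by 5 members (3.16%, against 1.54%). Between SM and CK, 12 members were past the criteria and higher (7.59%, against 6.16%) and 8 lower (5.06%, against 5.46%). These counts are a description too. Of the 12, 5 had a mean under 1 FPKM in CK, and of the 8, 2 had a mean under 1 FPKM in SM. None of the members reached an adjusted p under 0.05 there in edgeR's test (background 0.342%), with 21 at an unadjusted p under 0.05 (13.3%, against 13.2%) and 14 called by DESeq2 after adjustment (background 7.38%). The median log2 fold change was 0.10, against 0.04 over all gene models.

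Alfalfa carries 4 copies of each of 8 chromosomes, and reads of near-identical copies may be divided among gene models in ways that differ between libraries. Counts were therefore also added over models that share a description and tested as annotation sums, 15405 in the whole table and 48 with at least 1 member. Between S and CK, 10 of these 48 had an adjusted p under 0.05 in edgeR's test (20.8%, against 12.2% of all annotation sums). They were 4 higher in S (lipoxygenase 6, 13S-lipoxygenase 2-1, its isoform X1 and hydroperoxide lyase) and 6 lower (12-oxophytodienoate reductase 2, glyoxysomal fatty acid beta-oxidation multifunctional protein MFP-a, triacylglycerol lipase SDP1, its isoform X1, a putative phospholipase A(2) and an acyl-CoA oxidase entry). The share of 20.8% is a description, since the 48 were picked for holding a member and some members passed the FPKM minimum through S. The 13S-lipoxygenase 2-1 isoform X1 sum had a CK mean of 0.998 FPKM, and the phospholipase A(2) call rested on CK1, as given below. Between SM and CK, 3 of the 48 passed (6.25%, against 7.31%): lipoxygenase 6 was higher, and 12-oxophytodienoate reductase 2 and the putative phospholipase A(2) were lower.

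**Figure D1:**
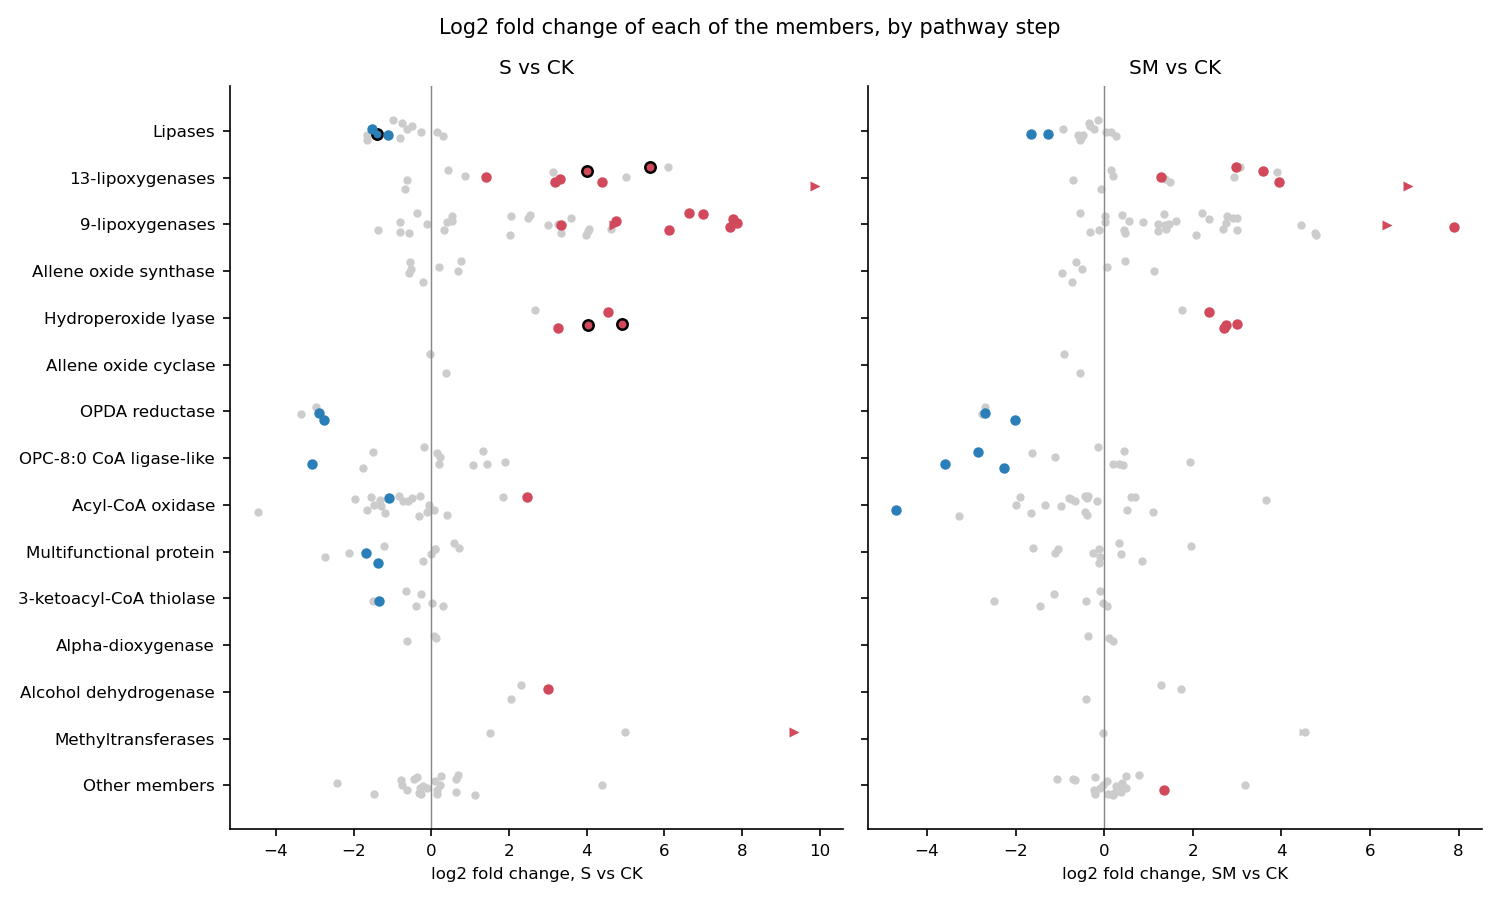
The log2 fold change of each of the 158 members is plotted by pathway step for S against CK and for SM against CK; red and blue points are past the study's criteria (higher or lower), black rings mark an adjusted p under 0.05, and triangles are bounds against 3 counts per library. All 7 of the called 13-lipoxygenase members and all 4 of the called hydroperoxide lyase members lay above 0 in S, and all called lipase and OPDA reductase members lay below 0.

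By step of the pathway, the members past the criteria between S and CK lay in 1 direction at several steps. Over all gene models tested, 7.79% were past the criteria and higher and 6.41% lower. No direction is read from steps with 1 called member. Higher in S were 7 of 14 members among the 13-lipoxygenases, 4 of 5 among the hydroperoxide lyases and 9 of 31 among the 9-lipoxygenases, with none lower. Of these, 5 of the 7 13-lipoxygenases, 4 of the 9 9-lipoxygenases and none of the 4 hydroperoxide lyases had a CK mean under 1 FPKM, so that their passing the minimum depended on other groups. The level of the 9-lipoxygenases in S rested on S1, as given below. Lower in S were 3 of 14 lipases, 2 of 4 OPDA reductases and 2 of 11 multifunctional proteins, with none higher. Steps with 1 called member were the thiolases (1 of 7 lower) and the CoA ligases (1 of 11 lower). So were the alcohol dehydrogenases (1 of 3 higher) and the carboxyl methyltransferases (1 of 3 higher). The acyl-CoA oxidases had 1 member higher and 1 lower of 21. None of the 7 allene oxide synthases, 2 allene oxide cyclases, 3 alpha-dioxygenases and 22 members whose descriptions gave no step was past the criteria there. Steps were assigned by description alone. By KEGG entry, 11 of these 22 were under acyl-CoA oxidase (K00232) and 4 under 9-lipoxygenase (K15718). Another 3 were under methyltransferase (K08241), 3 under lipase (K16818) and 1 under alpha-dioxygenase (K10529).

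**Figure D2:**
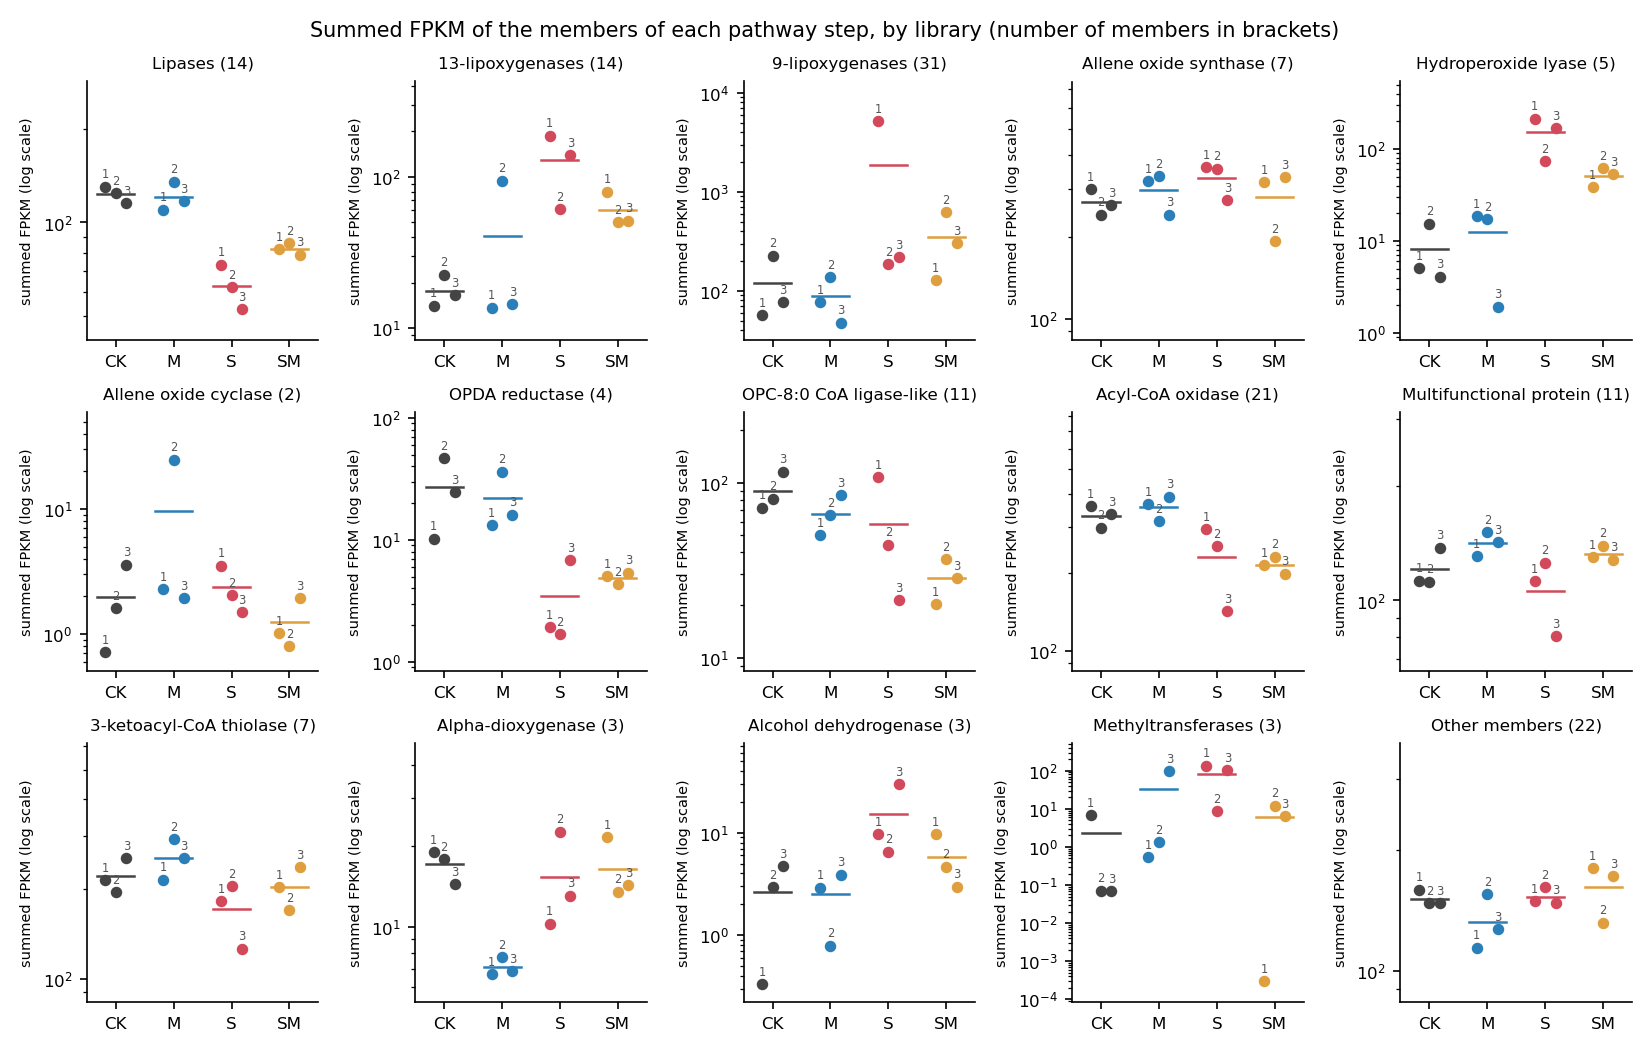
Summed FPKM of the members of each pathway step in each of the 12 libraries on a log axis, with the replicate number over each point and a line at the group mean. Hydroperoxide lyase summed to 73.6 to 214 FPKM in S and to 4.10 to 15.4 FPKM in CK, while allene oxide synthase lay between 193 and 362 FPKM in every library.

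Lipases release the fatty acids. Their 14 members summed to 130.2, 124 and 115 FPKM in CK, to 109.9, 135 and 117 FPKM in M, to 73.3, 61.9 and 52.6 FPKM in S and to 82.2, 86.0 and 78.8 FPKM in SM. The 3 S libraries and the 3 SM libraries lay below every library without salt, and S lay below SM; the CK mean was 1.97 times the S mean. Most of the difference lay in SDP1, which in Arabidopsis is the lipase that opens oil-body triacylglycerol. The 7 SDP1 models summed to 89.8, 86.9 and 68.8 FPKM in CK and to 44.6, 33.2 and 36.0 FPKM in S, with 57.8, 51.2 and 44.1 FPKM in SM and 53.7 to 75.0 FPKM in M. In edgeR's test SDP1 fell by 1.15 on the log2 scale in S (SE 0.22, adjusted p = 0.0083), and it passed in all 6 fits that left out 1 library of the pair of groups; for SM against CK the log2 fold change was -0.75 (adjusted p = 0.064). The isoform X1 sum of 5 models stood at 14.7, 12.3 and 11.4 FPKM in CK and at 6.44, 5.84 and 2.49 FPKM in S, and fell by 1.43 on the log2 scale (SE 0.34, adjusted p = 0.022, 4 of 6 such fits). Of the single gene models, MS.gene38812 (SDP1, chromosome 7.1, 16774244 to 16777830) had 27.0, 33.5 and 33.4 FPKM in CK, 13.7, 11.4 and 9.44 FPKM in S and 17.2, 10.97 and 10.96 FPKM in SM. It fell by 1.41 on the log2 scale in S (SE 0.28, adjusted p = 0.044), and its log2 fold change in SM was -1.26 (adjusted p = 0.096). The call in S was kept in 0 of 6 fits without 1 library, with adjusted p from 0.071 to 0.13.

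The other lipases did not share this pattern. The putative phospholipase A(2) (16 models, 1 a member) was at 117 FPKM in CK1 against 3.61 and 5.22 FPKM in CK2 and CK3, and at 1.74 to 2.95 FPKM in S and 0.565 to 2.65 FPKM in SM. Its log2 fold change of -5.88 in S (adjusted p = 0.040) became -0.81 (adjusted p = 0.56) without CK1, and that of -6.24 in SM (adjusted p = 0.048) became -1.17 (adjusted p = 0.43). The fall thus rested on CK1. Phospholipase A1-Ibeta2, a chloroplast-type lipase of 9 models, was at 8.21 to 14.4 FPKM in S and 13.3 to 25.3 FPKM in CK, which overlap.

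13-lipoxygenases carry out the first committed step towards jasmonate and leaf aldehydes. Their 14 members summed to 14.1, 22.6 and 16.6 FPKM in CK, to 187, 60.9 and 139.6 FPKM in S and to 79.9, 50.2 and 51.4 FPKM in SM. Every library with salt was above every CK library; the S mean was 7.26 times the CK mean, 5.64 times without S1, and the SM mean 3.40 times. In M the sums were 13.7, 94.5 and 14.5 FPKM, and the high value was M2. The phloem marker, sieve element occlusion, was also higher in all S libraries (1713, 263 and 105 FPKM, against 14.6 to 17.2 FPKM in CK) and was at 21.4 to 75.9 FPKM in SM, and its part in the 13-lipoxygenase and hydroperoxide lyase values was not tested.

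The kinds of 13-lipoxygenase differed. Lipoxygenase 6 (8 models), in Arabidopsis 1 of the chloroplast 13-lipoxygenases, was at 4.82, 5.82 and 4.46 FPKM in CK and at 4.11 to 6.82 FPKM in M, against 41.1, 27.4 and 39.8 FPKM in S and 51.7, 37.7 and 22.1 FPKM in SM. The 6 libraries with salt lay above the 6 without, and S and SM overlapped. It rose by 2.32 on the log2 scale in S (SE 0.32, adjusted p = 0.0018) and by 2.17 in SM (SE 0.32, adjusted p = 0.0048), each also in all 6 fits without 1 library, and SM against S gave -0.15 (adjusted p = 0.93). The gene model MS.gene023389 (lipoxygenase 6, chromosome 4.4, 16245416 to 16249308) carried a large share of it, with 1.75, 1.18 and 0.852 FPKM in CK, 22.4, 11.96 and 25.9 FPKM in S and 22.4, 15.7 and 7.89 FPKM in SM. Its log2 fold change was 4.02 in S (SE 0.68, adjusted p = 0.026, 1 of 6 fits without 1 library) and 3.59 in SM (SE 0.66, adjusted p = 0.057). A second copy, MS.gene08253 on chromosome 4.3, stood at log2 fold changes of 3.19 in S and 3.94 in SM.

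13S-lipoxygenase 2-1 (12 models) differed from lipoxygenase 6 in having intermediate values under salt with melatonin. It was at 0.338, 2.78 and 0.43 FPKM in CK and at 0.188, 2.32 and 0.514 FPKM in M, against 118, 21.5 and 78.0 FPKM in S and 17.3, 6.44 and 9.90 FPKM in SM. CK, SM and S did not overlap, with SM between the other two. It rose by 5.89 on the log2 scale in S (SE 1.19, adjusted p = 0.010), and by 5.33 without S1 (adjusted p = 0.024). For SM against CK the log2 fold change was 3.17 (SE 1.05, adjusted p = 0.097), and for SM against S it was -2.72 (SE 1.02, adjusted p = 0.49), so the gap between S and SM did not pass the test over all annotation sums. Isoform X1 (8 models) was at 29.9, 6.77 and 19.1 FPKM in S against 1.89, 0.393 and 0.712 FPKM in CK. It rose by 4.11 on the log2 scale in S (SE 0.88, adjusted p = 0.014, 4 of 6 fits without 1 library). In SM it was at 2.35, 2.05 and 6.71 FPKM. The log2 fold change was 1.69 for SM against CK (adjusted p = 0.24) and -2.415 for SM against S (adjusted p = 0.45).

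Among the single models of 13S-lipoxygenase 2-1, MS.gene003920 (chromosome 4.2, 39542882 to 39553351) stood at 0.221, 1.19 and 0.371 FPKM in CK, at 53.5, 9.35 and 24.1 FPKM in S and at 6.94, 3.40 and 3.84 FPKM in SM. It rose by 5.62 on the log2 scale in S (SE 1.02, adjusted p = 0.032, 1 of 6 fits without 1 library). Its log2 fold changes were 2.98 in SM against CK (adjusted p = 0.19) and -2.65 in SM against S (adjusted p = 0.84). MS.gene54596 (chromosome 4.3, 37884213 to 37906876) had no counts in the 6 libraries without salt, with 23.5, 4.71 and 21.0 FPKM in S. Against a floor of 3 counts in each CK library, its level was at least 948-fold higher in S and at least 115-fold higher in SM, where the values were 0.176 FPKM, no counts and 6.02 FPKM. MS.gene022221 on chromosome 3.3 had a log2 fold change of 3.33 in S and of -1.94 in SM against S.

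13S-lipoxygenase 3-1 (13 models) did not follow salt. It was at 7.89, 14.7 and 12.6 FPKM in CK and at 8.53, 10.03 and 13.7 FPKM in S, a log2 fold change of -0.17. In M it was at 6.49, 85.7 and 12.2 FPKM, and the log2 fold change of 1.51 against CK (SE 0.80, adjusted p = 0.75) became -0.42 without M2.

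Hydroperoxide lyase, which cuts 13-hydroperoxides into volatile aldehydes, had 5 members. They summed to 5.05, 15.4 and 4.10 FPKM in CK, to 18.6, 17.4 and 1.94 FPKM in M, to 214, 73.6 and 169 FPKM in S and to 38.6, 61.9 and 53.3 FPKM in SM. The S libraries were all highest, the SM libraries lay between S and those without salt, and CK and M overlapped. The sum rose by 4.25 on the log2 scale in S (SE 0.80, adjusted p = 0.0079, all 6 fits without 1 library), and by 3.95 without S1 (adjusted p = 0.020). For SM against CK the log2 fold change was 2.60 (SE 0.75, adjusted p = 0.061) and for SM against S it was -1.66 (SE 0.72, adjusted p = 0.53). The interaction, the difference between the melatonin effects with and without salt, was -2.33 (adjusted p = 0.60).

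The hydroperoxide lyase signal came from several gene models on copies of chromosome 2. MS.gene35712 (chromosome 2.1, 14006302 to 14010636) was at 1.75, 2.94 and 1.21 FPKM in CK, at 89.6, 23.1 and 63.3 FPKM in S and at 16.2, 17.4 and 14.3 FPKM in SM. It rose by 4.92 on the log2 scale in S (SE 0.92, adjusted p = 0.034, 1 of 6 fits without 1 library), with 3.005 in SM against CK (adjusted p = 0.16) and -1.91 in SM against S (adjusted p = 0.85). MS.gene034359 (chromosome 2.4, 13439638 to 13443982) was at 0.557, 3.54 and 0.791 FPKM in CK and at 30.9, 14.2 and 34.8 FPKM in S. It rose by 4.04 on the log2 scale (SE 0.80, adjusted p = 0.041, 2 of 6 fits without 1 library). MS.gene059303 on chromosome 2.2 stood at 4.54 on the log2 scale (adjusted p = 0.063) and MS.gene034357 one of 3.27, so 4 of the 5 members were past the criteria in S and 4 in SM.

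Allene oxide synthase competes with hydroperoxide lyase for the same 13-hydroperoxides, and allene oxide cyclase turns its product into OPDA. Allene oxide synthase, among the most abundant of the pathway steps, was at 300.4, 242 and 263 FPKM in CK, 362, 357 and 274 FPKM in S and 319.5, 193 and 333 FPKM in SM. The groups overlapped, and the log2 fold change of its 8 models in S was 0.27 (SE 0.22, adjusted p = 0.47). Its most abundant model, MS.gene40642 (chromosome 4.4, 38771963 to 38773411), was at 75.4, 134 and 101 FPKM in CK and at 192, 189 and 131 FPKM in S, a difference of 0.76 on the log2 scale (adjusted p = 0.36). Allene oxide cyclase was low by comparison. Its 15 models summed to 0.846, 1.88 and 4.14 FPKM in CK, to 3.34, 31.0 and 1.94 FPKM in M, to 9.60, 6.17 and 5.17 FPKM in S and to 1.46, 1.898 and 3.49 FPKM in SM. In this sum the S libraries lay above those of CK and SM, with a log2 fold change of 1.81 against CK (adjusted p = 0.24). Most of the 15 models were under the FPKM minimum. The 2 members alone overlapped among CK, S and SM, and their S mean was 1.19 times their CK mean. For M against CK, the log2 fold change of the 15-model sum, 2.19 (SE 0.96, adjusted p = 0.69), became 0.14 without M2. The leading allene oxide cyclase member, MS.gene59650 on chromosome 5.4, had 13.8 FPKM in M2 and 0.72 to 3.44 FPKM in the other libraries.

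OPDA reductases act next. The 4 members were all described as 12-oxophytodienoate reductase 2, whose Arabidopsis namesake is a cytosolic enzyme; the peroxisomal type that makes jasmonate in Arabidopsis, OPR3, had 4 gene models here, all under the minimum, with a sum of 0.10 FPKM. The reductase 2 models summed to 10.2, 46.8 and 24.4 FPKM in CK, to 13.2, 36.2 and 16.1 FPKM in M, to 1.92, 1.68 and 6.83 FPKM in S and to 5.02, 4.31 and 5.38 FPKM in SM. All 6 libraries with salt were below all 6 without it. The sum fell by 3.004 on the log2 scale in S (SE 0.68, adjusted p = 0.017) and by 2.54 in SM (SE 0.67, adjusted p = 0.045), with -0.37 in M (adjusted p = 0.96). Leaving out 1 library gave log2 fold changes from -3.95 to -2.30 in S, past the adjusted threshold in 4 of 6 fits (adjusted p = 0.055 without S1), and for SM in 1 of 6. The most abundant model, MS.gene40480 (chromosome 5.3, 1787467 to 1788896), was at 2.06, 19.7 and 10.5 FPKM in CK and at 0.927, 0.593 and 2.68 FPKM in S, with a log2 fold change of -2.89 (SE 0.82, adjusted p = 0.12).

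CoA ligases of the 4-coumarate-CoA ligase-like group activate the reduced OPDA for beta-oxidation. Their 11 members summed to 72.2, 81.2 and 116 FPKM in CK, to 108, 44.2 and 21.3 FPKM in S and to 20.1, 36.5 and 28.5 FPKM in SM. S1 stood among the CK libraries and the SM libraries below them; the CK mean was 1.55 times the S mean, and 2.74 times without S1. The isoform X1 of 4-coumarate-CoA ligase-like 9 (3 models) was at 39.5, 57.4 and 73.5 FPKM in CK, 20.3, 16.7 and 28.2 FPKM in M, 34.8, 11.3 and 2.45 FPKM in S and 5.42, 13.6 and 8.47 FPKM in SM. CK lay above all other libraries. The log2 fold change was -2.70 in SM (SE 0.74, adjusted p = 0.053) and -1.85 in S (SE 0.72, adjusted p = 0.12). Its model MS.gene95463 on chromosome 1.3 stood at -2.85 on the log2 scale in SM (adjusted p = 0.21), and MS.gene40027 on chromosome 1.4, of isoform X2, ranged from 3.43 to 57.7 FPKM within S alone. 4-coumarate-CoA ligase-like 5 (8 models) was at 28.3 FPKM in M2 against 3.75 and 2.34 FPKM in M1 and M3.

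Beta-oxidation in the peroxisome, which also breaks down other fatty acids, closes the pathway. The acyl-CoA oxidases, its first enzymes, had 21 members by description that summed to 361, 297 and 335 FPKM in CK, 294, 252 and 142 FPKM in S and 214, 230.2 and 198 FPKM in SM. Acyl-CoA oxidase 3 (12 models) was at 105, 88.3 and 100.2 FPKM in CK against 82.7, 60.7 and 39.5 FPKM in S and 63.9, 67.3 and 70.9 FPKM in SM, with no overlap and a log2 fold change of -0.73 in S (SE 0.23, adjusted p = 0.061); its most abundant model, MS.gene006655 on chromosome 4.1, stood at -0.72 (adjusted p = 0.19). Acyl-CoA oxidase 2 (7 models) was at 42.3, 26.8 and 22.0 FPKM in CK and at 12.7, 16.1 and 3.31 FPKM in S, a difference of -1.52 on the log2 scale (adjusted p = 0.10). Neither passed the adjusted threshold. An entry annotated as an acyl-CoA oxidase under the name LOC25485216 (4 models) was at 40.4, 41.9 and 41.2 FPKM in CK and at 24.6, 33.5 and 18.5 FPKM in S, and fell by 0.73 on the log2 scale (SE 0.21, adjusted p = 0.044), past the threshold in 1 of 6 fits without 1 library. Acyl-CoA oxidase 4, the most abundant of them, stood at -0.37 on the log2 scale in S (adjusted p = 0.48).

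The multifunctional proteins, which hydrate and oxidise the acyl chain, divided by kind. MFP-a (4 models) was at 21.6, 17.7 and 22.0 FPKM in CK, at 28.8, 27.3 and 43.4 FPKM in M, at 9.94, 4.38 and 6.48 FPKM in S and at 13.4, 21.9 and 18.4 FPKM in SM. S lay below all other groups, M above them, and CK and SM overlapped. It fell by 1.59 on the log2 scale in S (SE 0.33, adjusted p = 0.011, all 6 fits without 1 library), with -0.26 in SM against CK (adjusted p = 0.69). SM against S gave 1.34 (SE 0.33), an adjusted p of 0.33. The most abundant model, MS.gene035361 (chromosome 8.4, 11631044 to 11637764), was at 12.5, 14.7 and 17.8 FPKM in CK, 7.89, 3.96 and 5.05 FPKM in S and 11, 17.3 and 13.4 FPKM in SM, with a log2 fold change of -1.37 in S (adjusted p = 0.077) and of 1.27 in SM against S (adjusted p = 0.73). MFP2 and AIM1, the other kinds, had log2 fold changes of 0.05 and -0.07 in S, with the leading AIM1 model MS.gene61340 at 0.10, although 1 MFP2 model, MS.gene52387 on chromosome 2.3, stood at -1.68 (adjusted p = 0.13). The thiolase 3-ketoacyl-CoA thiolase 2 (8 models), the last enzyme of the cycle, stood at -0.40 on the log2 scale (adjusted p = 0.25), and its most abundant model, MS.gene53674 on chromosome 1.1, at -0.65 (adjusted p = 0.33).

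**Figure D3:**
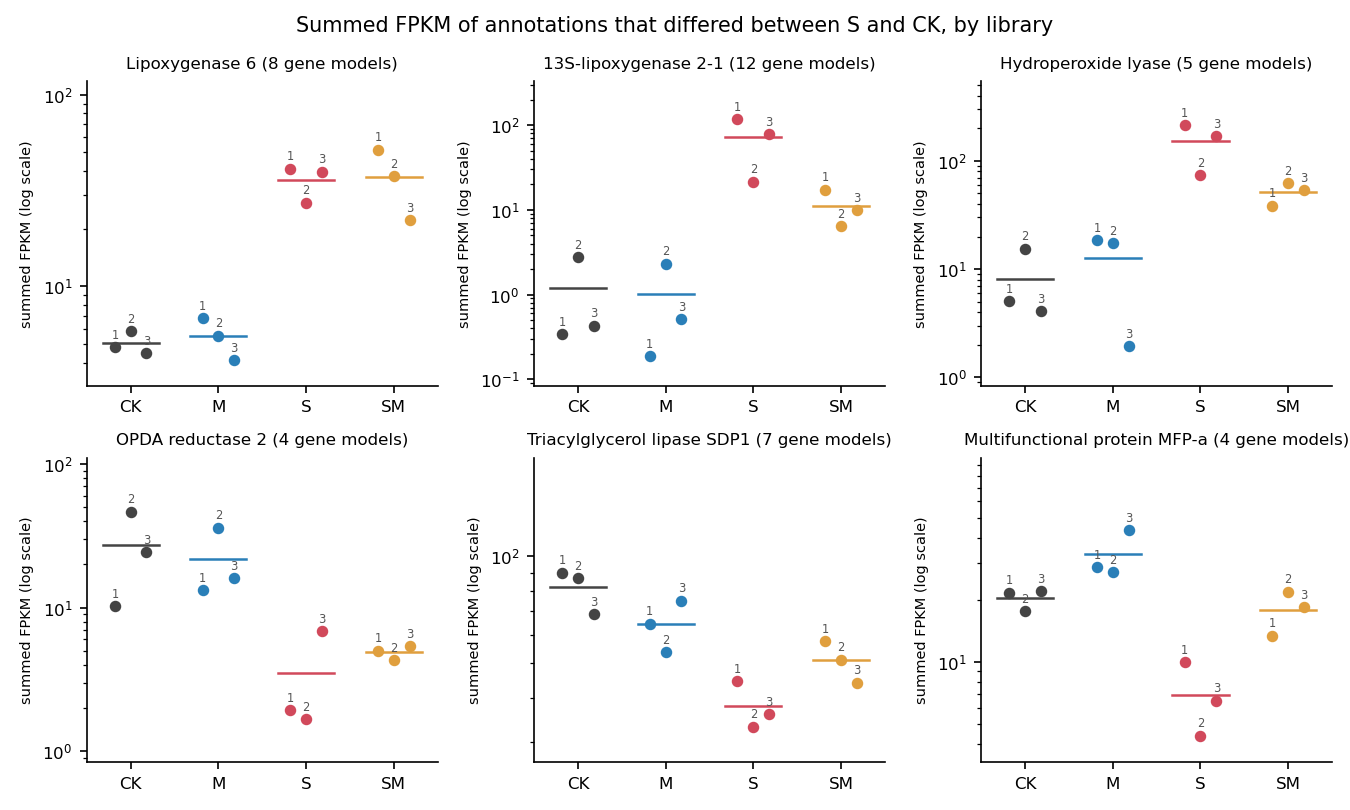
Summed FPKM of 6 annotations in each of the 12 libraries on a log axis, with the replicate number over each point and a line at the group mean. Lipoxygenase 6 was high in all S and SM libraries, 13S-lipoxygenase 2-1 and hydroperoxide lyase were highest in S, 12-oxophytodienoate reductase 2 and SDP1 were lower in S, and MFP-a was at 4.38 to 9.94 FPKM in S against 13.4 to 21.9 FPKM in SM.

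The 9-lipoxygenases were the largest step with 31 members, and their level in S rested on S1. They summed to 56.4, 226 and 76.8 FPKM in CK, to 77.3, 138 and 47.8 FPKM in M, to 5144, 185 and 217 FPKM in S and to 127, 620.2 and 303 FPKM in SM. In S1 they made up 73.6% of the FPKM of all members, against 3.09% to 35.3% in the other libraries, and the FPKM of all members together was 6986 in S1 and 1431 to 1772 elsewhere. The S mean was 15.4 times the CK mean with S1 and 1.68 times without it. Past the criteria and higher in S were 9 members, and in the fit without S1 the count was 2.

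9S-lipoxygenase 1 (5 models) was at 4.70, 4.56 and 4.21 FPKM in CK and at 2067, 14.7 and 25.04 FPKM in S. The log2 fold change of 7.23 (SE 2.21, adjusted p = 0.057) became 2.11 (adjusted p = 0.35) without S1. Its 4 chromosome 3 copies were all high in S1, MS.gene70524 at 349.8 FPKM, MS.gene25764 at 580.5 FPKM, MS.gene044274 at 659 FPKM and MS.gene69751 at 478 FPKM. The models described as 9S-lipoxygenase (44) summed to 2403 FPKM in S1 against 70.5 and 42.1 FPKM in S2 and S3, and to 390.2 FPKM in SM2, with a log2 fold change of 4.17 in S (adjusted p = 0.18) and of 0.05 without S1 (adjusted p = 0.99). The most abundant of them, MS.gene07843 (chromosome 8.3, 71887649 to 71891752), had 1056 FPKM in S1, and 14.8 and 26.9 FPKM in S2 and S3, against 1.63, 52.5 and 12.6 FPKM in CK. Seed 9S-lipoxygenase (7 models) was at 637, 56.0 and 108 FPKM in S and 9.35, 77.9 and 11.9 FPKM in CK (log2 fold change 2.95, adjusted p = 0.11, and 1.26 without S1, adjusted p = 0.45). Among low models, MS.gene011253 on chromosome 8.2 had a ratio of counts of 217 in S over CK (95% counting interval 74.1 to 1057). That interval leaves out the spread between replicates. In edgeR's test this model stayed past the criteria in 3 of 6 fits without 1 library, with adjusted p from 0.24 to 0.42. MS.gene011255 was at least 25.9-fold higher in S and at least 84.0-fold higher in SM than a floor of 3 counts in each CK library.

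Sieve element occlusion genes, which mark phloem and are not members, summed over 63 models to 14.6, 17.2 and 16.1 FPKM in CK, 9.51 to 27.9 FPKM in M, 1713, 263 and 105 FPKM in S and 21.4, 28.5 and 75.9 FPKM in SM. They were highest in S1, like the 9-lipoxygenases, and were also above CK in S2 and S3, where the 9-lipoxygenases overlapped with CK. Seed storage protein models summed to 25.3 to 83.1 FPKM over all libraries. The part of other cells in the 9-lipoxygenase values was not tested.

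**Figure D4:**
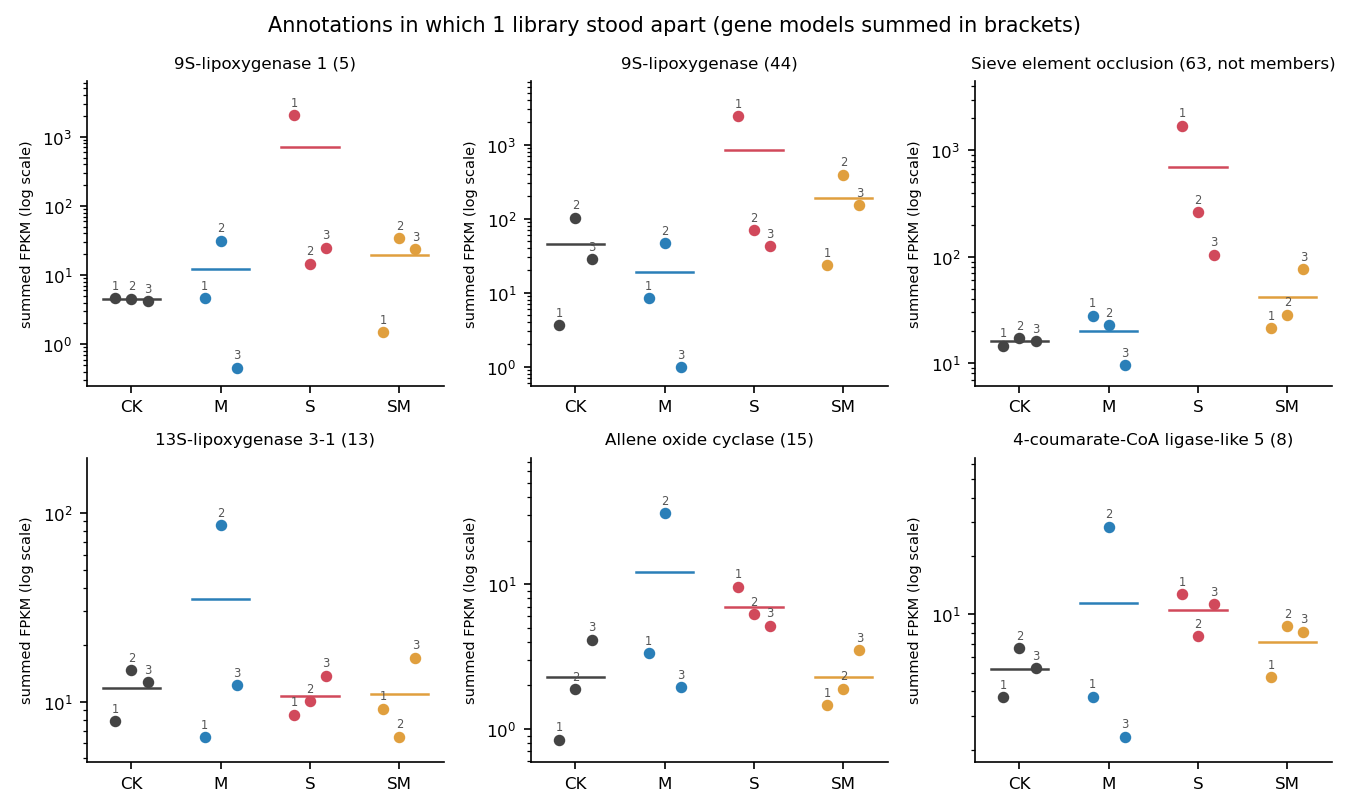
FPKM in each library for annotations in which 1 library stood apart, on a log axis, with sieve element occlusion genes (63 models, not members) as a phloem marker; replicate numbers are over the points and lines are group means. S1 held 2067 FPKM of 9S-lipoxygenase 1 and 1713 FPKM of sieve element occlusion genes, and M2 held 85.7 FPKM of 13S-lipoxygenase 3-1 and 31.0 FPKM of allene oxide cyclase.

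Not all 9-lipoxygenases were high in S1. The probable linoleate 9S-lipoxygenase 5 entry (10 models) was at 18.7, 12.8 and 19.9 FPKM in S and 10.7, 7.34 and 9.18 FPKM in CK, a difference of 0.87 on the log2 scale (adjusted p = 0.070). In M it was at 22.9, 18.6 and 23.8 FPKM, all above CK, with a log2 fold change of 1.24 (SE 0.29, adjusted p = 0.41). The entry 9S-lipoxygenase 5 (5 models) stood at 16.9, 11.1 and 9.62 FPKM in M and at 21.1, 27.7 and 19.7 FPKM in CK, a difference of -0.95 on the log2 scale (adjusted p = 0.56). Among its models, both on chromosome 1.2, MS.gene91443 was at 9.13, 12.7 and 9.93 FPKM in CK and 6.06, 3.29 and 3.10 FPKM in M (-1.38 on the log2 scale, adjusted p = 0.86), and MS.gene071660 stood at -1.01 (adjusted p = 0.77).

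The side branches were small. Alpha-dioxygenase 2, which makes other hydroperoxides of fatty acids, had 3 members that summed to 19.0, 17.8 and 14.4 FPKM in CK and to 6.69, 7.73 and 6.84 FPKM in M, with no overlap, and to 10.3 to 22.6 FPKM in S and 13.5 to 21.6 FPKM in SM. For M against CK, the value on the log2 scale was -1.30 (SE 0.31, adjusted p = 0.42). Its most abundant model, MS.gene62619 on chromosome 4.2, had 6.71, 12.2 and 5.14 FPKM in CK and 0.989, 4.33 and 3.13 FPKM in M. Alcohol dehydrogenase 1 (6 models), which turns leaf aldehydes into alcohols, was at 8.38, 7.57 and 29.4 FPKM in S and 0.688, 2.02 and 4.48 FPKM in CK, with no overlap and a log2 fold change of 2.63 (SE 0.88, adjusted p = 0.076). Its leading model, MS.gene33522 on chromosome 3.3, stood at 3.02 on the log2 scale in S (adjusted p = 0.17). The carboxyl methyltransferases, whose family makes methyl jasmonate among other esters, had 3 members that summed to 6.79, 0.0712 and 0.0702 FPKM in CK, to 0.538, 1.35 and 96.8 FPKM in M and to 135, 8.78 and 102 FPKM in S, with no counts in SM1 and 12.1 and 6.49 FPKM in SM2 and SM3. Values within a group thus differed more than the groups did. MS.gene73356 (chromosome 7.2, 23021956 to 23022801) had no counts in CK or in S2, and 133 and 89.0 FPKM in S1 and S3. Its S level was at least 651-fold above a floor of 3 counts in each CK library, its M level at least 283-fold, through M3 at 90.8 FPKM, and its SM level at least 22.3-fold.

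Whether melatonin moved the pathway was asked without salt (M against CK) and with it (SM against S). In M, 3 members were past the criteria and higher (1.9%, against 2.87% of all gene models) and 5 lower (3.16%, against 1.95%). None of the members passed the adjusted threshold in edgeR's test (background 0.0118%), with 10 at an unadjusted p under 0.05 (6.33%, against 5.58%) and 4 called by DESeq2 (background 1.68%). None of the 48 annotation sums did (background 0.0%), with 2 called by DESeq2 (background 1.23%). Higher were an acyl-CoA oxidase 4 model, MS.gene95617 (1.10 on the log2 scale, adjusted p = 0.89), the methyltransferase MS.gene73356 and MS.gene39976 (1.34, adjusted p = 0.80). The description of MS.gene39976 gave no step, and its KEGG entry was acyl-CoA oxidase (K00232). Lower were the 2 models of 9S-lipoxygenase 5 on chromosome 1.2, a lipoxygenase 6 model, a hydroperoxide lyase model and MS.gene008450, a putative 7-methylxanthosine synthase, which like MS.gene08254 was named after its values were seen. The lipoxygenase 6 model, MS.gene08254, had no counts in M or in CK1 and was at 0.534 and 0.257 FPKM in CK2 and CK3, which makes it at least 13.3-fold lower in M against a floor of 3 counts in each M library, while lipoxygenase 6 as a sum stood at 0.21 on the log2 scale (adjusted p = 0.95). The hydroperoxide lyase model, MS.gene35486 on chromosome 2.4, was at 0.587, 2.40 and 0.644 FPKM in CK and at 0.115 FPKM or no counts in M. It stood at -4.80 on the log2 scale (SE 1.46, adjusted p = 0.77), while hydroperoxide lyase as a sum stood at 0.68. The direction of the last model in M thus turned when all copies were added.

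The median log2 fold change of the members was 0.18 in M, against 0.04 over all gene models, and it turned to -0.17 without M2. For SM against S it was -0.03, beside -0.02, and 0.06 without S1. Between SM and S, 4 members were past the criteria and higher in SM (2.53%, against 2.31%) and 6 lower (3.8%, against 2.45%). Without S1 these were 3 higher (background 2.91%) and 0 lower (background 2.03%). None of the members passed the adjusted threshold in edgeR's test (background 0.0177%), with 11 at an unadjusted p under 0.05 (6.96%, against 5.76%) and 1 called by DESeq2 (background 1.6%). None of the annotation sums did (background 0.0%), with 1 called by DESeq2 (background 1.76%). The members that were higher were 3 multifunctional protein models and 1 whose description gave no step, under the lipase entry K16818 in KEGG. Those that were lower were 2 each of the 13-lipoxygenases, 9-lipoxygenases and hydroperoxide lyases. For the interaction, 3 members were past the criteria and higher (1.9%, against 2.6%) and 8 lower (5.06%, against 3.39%). None passed after adjustment in edgeR's test (background 0.0275%), with 12 at an unadjusted p under 0.05 (7.59%, against 6.17%) and 2 called by DESeq2 (background 1.89%). A smaller response of the 13-lipoxygenase 2-1 and hydroperoxide lyase genes in SM than in S was thus seen in every library of these groups but did not pass the test of that difference.

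The 158 members lay on copies of all 8 base chromosomes, with 46 on copies of chromosome 1, 29 on those of chromosome 8 and 25 on those of chromosome 4. Members that share a description and lie on at least 2 copies of a base chromosome made 38 sets, and 17 of these were present on all 4. A set can hold neighbouring genes as well as copies, and the 9S-lipoxygenase set on chromosome 8 held 9 members. Between S and CK, the models of a set had the same sign of log2 fold change in 10 of these 17 sets, and in 9 between SM and CK. The 4 copies of 12-oxophytodienoate reductase 2 ranged only from -3.34 to -2.78 in S, the SDP1 isoform X1 copies from -1.65 to -0.99, the lipoxygenase 6 copies from 1.40 to 4.02 and the 9S-lipoxygenase 1 copies from 6.65 to 7.87. The SDP1 copies ranged from -1.655 to 0.30, across 0. Those of 13S-lipoxygenase 2-1 ranged from 5.01 to 14.5, the upper value from MS.gene54596, which had no counts in CK. The ratio of the highest to the lowest mean FPKM within a set was from 1.28 (4-coumarate-CoA ligase-like 5) to 61.1 (9S-lipoxygenase on chromosome 8, with its neighbouring genes). In 12 of the 17 sets the models were further apart in their fold between S and CK than in their level. Copies are not replicates, and their reads may have been exchanged in mapping.

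**Figure D5:**
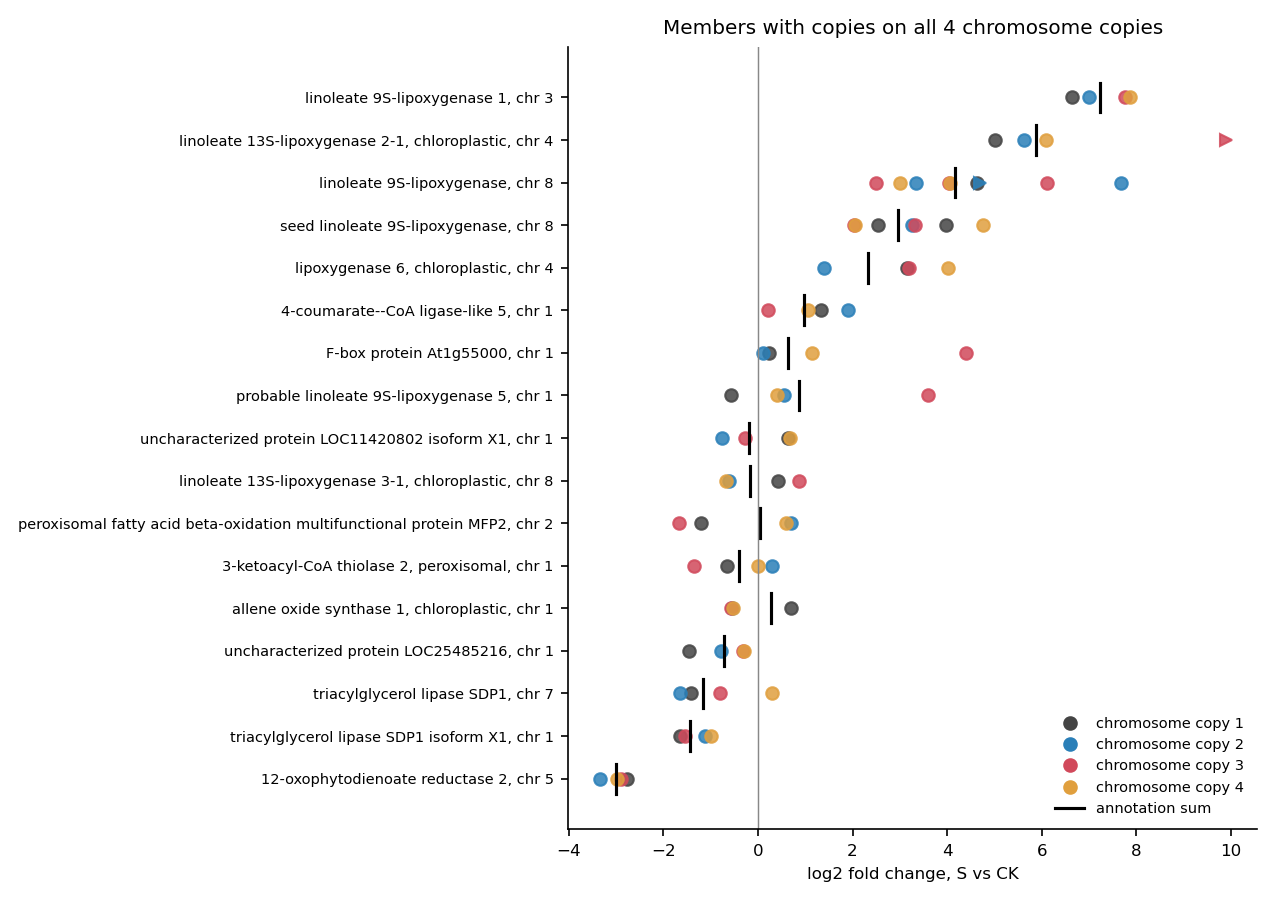
The log2 fold change between S and CK of each model in the 17 sets of a shared description that were present on all 4 chromosome copies, coloured by chromosome copy, with a black bar for the annotation sum. The copies of 12-oxophytodienoate reductase 2 lie together below 0, from -3.34 to -2.78, and those of 9S-lipoxygenase 1 together above 6.

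Of the members, 39 lay in 15 runs of neighbouring members whose starts were within 200 kb of each other. The longest was a run of 5 9-lipoxygenases over 194 kb on chromosome 8.3, with runs of 3 on chromosomes 8.1, 8.2 and 8.4. The hydroperoxide lyase models on chromosome 2.4 made a run of 3 within 32.5 kb, and MFP-a a run of 3 on chromosome 8.4. The other runs held phospholipase A1-Ibeta2, acyl-CoA oxidase 1 and 2, allene oxide cyclase and 9S-lipoxygenase 5 models. An F-box protein that carried the linoleic acid map by annotation lay beside probable linoleate 9S-lipoxygenase 5 on all 4 copies of chromosome 1, and its sum stood at 0.63 on the log2 scale in S (adjusted p = 0.19).

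Genes around the pathway that are not members were counted by the same criteria. Omega-6 desaturases, which make linoleic acid, had 4 of 7 models past the criteria and higher in S (57.1%, against 7.79% of all gene models) and none lower. An adjusted p under 0.05 in edgeR's test was reached by 2 of them with S1, and by none without it. The sum of the endoplasmic reticulum isozyme was at 14.7, 30.7 and 23.5 FPKM in CK, 359, 68.5 and 174 FPKM in S and 121, 32.5 and 53.5 FPKM in SM. It rose by 3.08 on the log2 scale in S (adjusted p = 0.012), and by 2.36 without S1 (adjusted p = 0.033), with 1.53 in SM (adjusted p = 0.16). Omega-3 desaturases, which make linolenic acid, had 1 of 5 lower in S (20%, against 6.41%) and none higher. None of the 4 models of JAR1, which joins jasmonate to isoleucine, was past the criteria in S by edgeR's unadjusted p, and none of the 8 of the receptor COI1, which summed to 73.9 to 166 FPKM over the 12 libraries. Among 25 models of jasmonate breakdown 3 were higher (12%, against 7.79%) and 3 lower (12%, against 6.41%). Without S1 these were 5 (20%, against 6.85%) and 3 (12%, against 7.18%).

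Genes of the kinds known to answer to jasmonate and wounding, 48 models of proteinase inhibitors and vegetative storage proteins, were past the criteria and higher in 19 cases between S and CK (39.6%, against 7.79% of all gene models) and lower in 3 (6.25%, against 6.41%). Without S1 these were 10 (20.8%, against 6.85%) and 3 (6.25%, against 7.18%). Between SM and CK 3 were higher (6.25%, against 6.16%) and 1 lower (2.08%, against 5.46%). Between SM and S 0 were higher and 9 lower (18.8%, against 2.45%), or 2 lower without S1 (4.17%, against 2.03%). These shares are a description, since the 48 were the models of 278 that passed the FPKM minimum, some of them through S. The putative trypsin inhibitor sum, for one, had a mean of 0.869 FPKM in CK and 530 FPKM in S. As annotation sums, 4 of 13 had an adjusted p under 0.05 and were higher in S, and 2 of these without S1. The 2 that passed without S1 are given here. Serine proteinase inhibitor, a defence protein of wounded leaves, was at 146, 512 and 93.9 FPKM in CK, 25552, 1168 and 4827 FPKM in S and 582, 1553 and 745 FPKM in SM, and rose by 5.32 on the log2 scale in S (adjusted p = 0.015), or by 3.52 without S1 (adjusted p = 0.034). Stem 28 kDa glycoprotein, a vegetative storage protein, was at 0.716 to 1.28 FPKM in CK and at 1515, 4.90 and 148 FPKM in S, and rose by 9.15 on the log2 scale (adjusted p = 0.011), or by 6.30 without S1 (adjusted p = 0.027). In both cases S1 was highest and S2 lowest within S. The SM libraries stood lower than S3 but on both sides of S2, with 7.91, 5.83 and 3.73 FPKM in SM for the stem 28 kDa glycoprotein. The other 2 lost the call without S1: the Kunitz type trypsin inhibitor / alpha-fucosidase sum went from 6.27 (adjusted p = 0.044) to 1.88 (adjusted p = 0.33) on the log2 scale, and the putative trypsin inhibitor from 9.10 (adjusted p = 0.026) to 3.90 (adjusted p = 0.14). Cysteine proteinase inhibitor 5, with 63 models the largest of the list, stood at -0.80 in S (adjusted p = 0.13).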

How the data were processed

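Leaf RNA (4 groups of 3 biological replicates) was extracted with TRIzol and sequenced on an Illumina NovaSeq instrument. The authors trimmed reads with Cutadapt, mapped them with HISAT2 version 2.0.4 and assembled and quantified transcripts with StringTie and Ballgown. The genome build was not given in the sources used here. The deposited table holds estimated counts and, beside them, FPKM values that the authors computed per gene model. No other per-sample columns were left out (0). The authors' own comparisons were not used.

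The deposited estimated counts were whole numbers. They were tested in edgeR 4.0.16 (R 4.3.3) with TMM scaling, by quasi-likelihood, in 1 fit of the 4 groups over the 50931 gene models with a mean of at least 1 FPKM, with Benjamini-Hochberg adjustment over all of them. Annotation sums were tested likewise. SE values are of the log2 fold change. Library totals limit precision to counting error plus the spread between 3 replicates. The p-values rest on that spread as estimated jointly over the 4 groups, not from the compared groups alone. Counting intervals cover counting error only. A fold against a group with no counts was computed against 3 counts in each library of that group. The members, pathway steps and gene lists were chosen with earlier results of these data known. The gene models named are the most abundant of each step, those with an adjusted p under 0.05, the 8 largest non-overlapping changes past the criteria in each comparison, and the 2 on either side of the FPKM minimum. The members have no p-value adjusted over the list. Fitting was tested on simulated counts. Alternatives were DESeq2 1.42.0, RLE scaling, no filter, only the 6 libraries compared, a replicate block, and leaving out each library. Figures and summaries used Python 3.11.15, pandas 2.3.3 and matplotlib 3.10.9.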

Additional observations from a re-analysis of the deposited data

How the results depend on the processing

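The number of members past the study's criteria kept within 1.5 times its value between S and CK (33, from 26 to 39 without 1 library) and between SM and CK (20, from 17 to 24). In M against CK (8) it was 5 with the replicate block and 4 to 14 without 1 library, with 14 without CK1 and 4 without CK2. In SM against S (10) it was 3 to 18, with 3 without S1, 6 without SM1 or SM2 and 18 without S2. In the interaction (11) it was 5 to 14, with 7 without CK3 and 5 without M2. Members with an adjusted p under 0.05 in S (5) numbered 26 by DESeq2, 2 with no filter, 0 with only the 6 libraries, 1 with the replicate block and 0 to 4 without 1 library, with 0 without CK1, CK3, S1 or S3 and 1 without CK2. In the other comparisons edgeR called 0, and DESeq2 called 14 in SM, 4 in M and 1 in SM against S. Annotation sums in S (10) numbered 6 with only the 6 libraries and 7 to 10 without 1 library; those in SM (3) numbered 8 by DESeq2, 6 with only the 6 libraries, 1 with the replicate block and 1 to 3 without 1 library, with 1 without any of SM1, SM2 or SM3; and DESeq2 called 2 in M and 1 in SM against S, where edgeR called 0. Of 46 results for single gene models past the criteria, all 46 kept their call with RLE scaling and with no filter, 43 with only the 6 libraries, 40 by DESeq2, 38 with the replicate block and 34 as the annotation sum. With the annotation sum the direction turned for MS.gene35486 in M (0.68) and for MS.gene52387 in S (0.0458) and in SM against S (-0.28). Over 18 pairs of libraries with the same replicate number, the correlation of deviations from the group means was from -0.082 to 0.045. Pairs with different numbers were not set beside them, so whether libraries with the same number shared a batch cannot be told from this. The cause of the differences between settings was not tested.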
